A study of Mus musculus with 8 samples.

Results

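The genes described here are 10 mouse genes of mucus-producing and gastric-type epithelium: the mucins *Muc1*, *Muc4*, *Muc5ac*, *Muc5b* and *Muc6*, the trefoil factors *Tff1* and *Tff2*, the protease gene *Ctse*, the adhesion-family gene *Ceacam18* and the secretory chaperone gene *Agr2*. They were picked by symbol from a table of 53465 genes. The set was selected on expression changes seen earlier in these same libraries, chiefly the difference between *Smad4*-on and *Smad4*-off cells, so for these genes that difference is a description: it is given as values, with counts under the calling rule from which nothing is read. All 10 symbols were found, and 8 of the 10 had enough reads to enter the fits. *Muc4* and *Agr2* did not.

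RNA was sequenced from 2 mouse pancreatic ductal adenocarcinoma lines, KCS-B73 and KCS-B87 (B73 and B87 hereafter). Each was grown from a tumor-bearing pancreas in which *Ptf1a*-Cre, active in the pancreatic lineage, had switched on a doxycycline-dependent transactivator with the mKate2 reporter, and through it a GFP-linked short hairpin RNA against *Smad4*. *Smad4*-off cells were kept on doxycycline, and *Smad4*-on cells had been without it for 5 days. Both kinds were then treated for 24 h with either 2.5 µM SB505124, which blocks the kinase of the type I TGFβ receptor, or 100 pM TGFβ1. Every line gave 1 library for each of the 4 combinations, 8 libraries in all. All 8 carry the hairpin allele, no library had neither inhibitor nor ligand, and which of the model's *Smad4* hairpins each line carries was not given in the sources used here.

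Gel-forming mucins are long secreted glycoproteins that link into the mucus layer, whereas membrane mucins stay anchored at the cell surface. The surface cells of the stomach secrete MUC5AC together with the trefoil peptide TFF1, and the deeper gland cells secrete MUC6 together with TFF2. A normal pancreatic duct makes little of this mixture, but precancerous pancreatic lesions often take on such gastric features. TGFβ binding lets SMAD2 and SMAD3 enter the nucleus with SMAD4, their shared partner, and act on target genes.

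Library totals ran from 18389235 to 23440550 counts. Values are CPM, read counts relative to the scaled library size, and a floor of 3 reads corresponds to between 0.125 and 0.162 CPM. The targeted gene, *Smad4*, measured 33.7 to 35.5 CPM in the 4 *Smad4*-off libraries and 97.3 to 117 CPM in the 4 *Smad4*-on libraries, without overlap. Of 7 ductal epithelial markers 6 exceeded 1 CPM in every library, but the defining surface marker *Epcam* had only 3 to 39 reads. Among markers of other cells, the fibroblast gene *Lum*, the macrophage gene *Adgre1* and the acinar genes *Cpa1*, *Ctrb1* and *Amy2b* had no read. The leukocyte list of 5 genes summed to between 2.15 and 6.43 CPM under SB505124 and between 1.32 and 3.04 CPM under TGFβ1, chiefly *Cd68*, which had 23 to 126 reads. The fibroblast list of 5 genes summed to between 0.765 and 2.23 CPM in B73 and to between 17.9 and 33.7 CPM in B87, almost all of it *Pdgfra* and *Pdgfrb*. In bulk RNA, fewer cells that make a transcript and less transcript per cell cannot be told apart.

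Set side by side per kilobase of transcript, the most abundant of the 10 in *Smad4*-on cells under SB505124 was *Tff1*, at 24 CPM per kb (7.56 and 40.4 in the 2 lines). *Ceacam18* (6.64 CPM per kb), *Tff2* (6.51), *Muc5ac* (3.98), *Muc1* (3.05) and *Ctse* (2.45) followed with ranges that overlapped between neighbors in this order. *Muc5b* (0.198 CPM per kb) and *Muc6* (0.0524) were far lower and their ranges did not overlap those of the 6 genes above them. In *Smad4*-on cells under TGFβ1 the order differed: *Ctse* led at 7.52 CPM per kb, then *Muc1* at 1.93, with overlapping ranges, and *Tff2* had no read. The plot of levels by condition shows all 10 genes in every library.

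**Figure D1:**
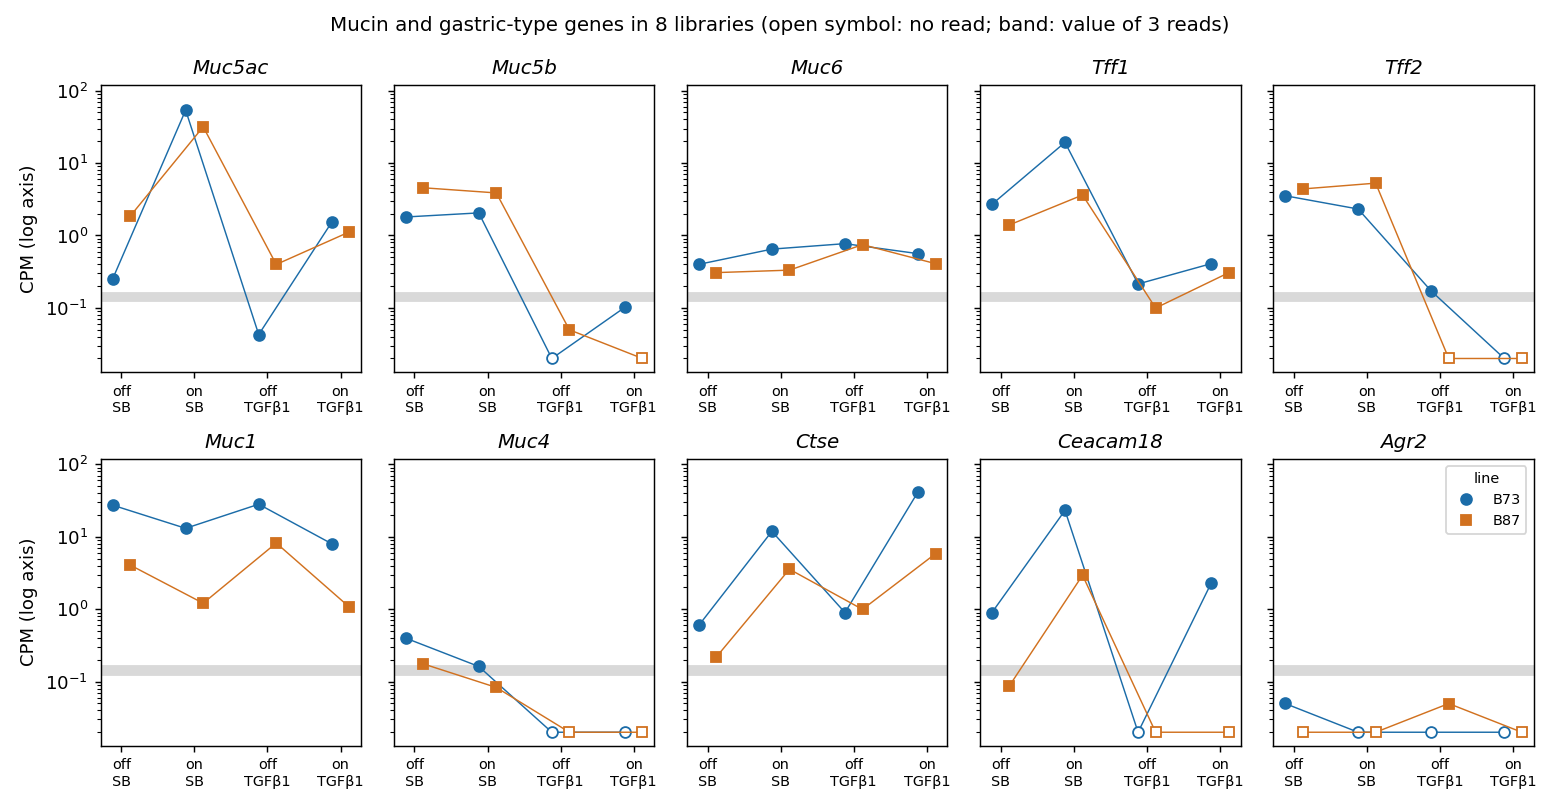
CPM of each of the 10 genes (log axis) in the 4 combinations of *Smad4* state (off, on) and treatment (SB for SB505124, or TGFβ1), with B73 as circles and B87 as squares; lines only join the libraries of 1 cell line, open symbols mark libraries with no read and are drawn at an arbitrary low position, and the grey band is the value of 3 reads. *Muc5ac*, *Tff1* and *Ceacam18* peak in *Smad4*-on cells under SB505124, *Ctse* peaks in *Smad4*-on cells under TGFβ1, and *Muc5b* and *Tff2* are at 4 reads or fewer in every TGFβ1 library.

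Whether TGFβ signaling changes these genes was tested on the TGFβ1-minus-SB505124 difference averaged over both *Smad4* states. This average is balanced with respect to the *Smad4* differences the set was selected on. It is not independent of the selection, which drew on changes in these same libraries. A gene was called at an adjusted p under 0.05 and a fold change above 2, and by this rule 6.97% of the 14301 tested genes were called lower and 5.42% higher. Expression of *Muc5ac*, *Muc5b*, *Tff1*, *Tff2* and *Ceacam18* was lower under TGFβ1 than under SB505124, 5 of the 8 tested genes, and none of the 8 was called higher. For this contrast, fell and rose below mean lower and higher than under SB505124. With no library lacking both, a fall caused by TGFβ1 cannot be told apart from a rise caused by SB505124. The count itself is only a description. *Muc5b*, *Tff1* and *Tff2* reached 10 reads in all 4 SB505124 libraries and in no TGFβ1 library, and *Ceacam18* in 3 and 1. These genes thus entered the fit through the treatment in which they were high. Their adjusted p-values and calls for this contrast, given below, carry the same limit.

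*Muc5ac* encodes the chief gel-forming mucin of the gastric surface. Under SB505124 it measured 0.249 CPM in *Smad4*-off and 53.8 CPM in *Smad4*-on B73 cells, and 1.84 and 31.7 CPM in the corresponding B87 cells. Under TGFβ1 the same 4 states gave 0.0428, 1.53, 0.398 and 1.12 CPM. Treatment ranges overlapped, because the *Smad4*-off libraries were low under SB505124 as well, while within each line and *Smad4* state the TGFβ1 library was the lower one. Averaged over *Smad4* states, the log2 difference came to -3.67 ± 0.628 (SE; edgeR adjusted p 0.00404). Of the B87 *Smad4*-off pair, leaving out the SB505124 library gave -2.5 (0.0495 in edgeR) and leaving out the TGFβ1 library gave -4.75, both still called. Pooled over 4 libraries per treatment, 1807 reads under SB505124 stood against 61 under TGFβ1, a ratio of 28.7 (95% interval 22.2 to 37.6, counting error only).

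*Tff1*, the trefoil partner of MUC5AC, was likewise highest in *Smad4*-on cells under SB505124 in both lines. Its levels under SB505124 were 2.69 and 19.3 CPM in B73 (*Smad4* off, then on) and 1.4 and 3.62 CPM in B87. Under TGFβ1 they were 0.214 and 0.408 CPM in B73 and 0.0995 and 0.306 CPM in B87. Every SB505124 library thus exceeded every TGFβ1 library, with a log2 difference of -4.26 ± 0.401 (edgeR adjusted p 0.000335) and a pooled read ratio of 24.5 (15.8 to 39.9) in favor of SB505124. An antisense gene, *Gm15318*, overlaps *Tff1* and had at most 26 reads; 11.6% of the 75-base stretches of *Tff1* transcripts are also found in another gene, chiefly this one, and the strand setting of the counting is not given in the sources used here.

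*Muc5b* is the gel-forming mucin better known from airways and salivary glands. It had 36 and 38 reads in B73 and 104 and 93 reads in B87 under SB505124, against 0 and 2 reads in B73 and 1 and 0 reads in B87 under TGFβ1 (*Smad4* off, then on). The treatments did not overlap, and *Smad4* state made little visible difference on either side. The pooled read ratio was 87.4 (29.6 to 427), resting on 3 reads in all under TGFβ1, and the edgeR adjusted p was 0.000248. The fitted log2 difference of -6.2 became -8.1 without the *Smad4*-on TGFβ1 library of B73, -5.42 without that of B87 and -7.06 without the *Smad4*-off TGFβ1 library of B87, and it was called each time.

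*Tff2*, a trefoil factor of gastric gland mucous cells, also fell. Its reads under SB505124 were 71 and 43 in B73 and 100 and 127 in B87, and under TGFβ1 they were 4 and 0 in B73 and 0 in both B87 libraries. The ratio of pooled reads was 82.5 (31.9 to 305), with 4 reads in all under TGFβ1 (edgeR adjusted p 0.000706). Over the 8 libraries, the log2 levels of *Tff2* and *Muc5b* had a Pearson r of 0.955, against 0.803 for *Tff2* and *Tff1* and 0.811 for *Muc5b* and *Tff1*, given as a description of libraries that share treatments and lines. The fitted log2 difference of *Tff2*, -7.3, was -9.49 without the *Smad4*-off TGFβ1 library of B73 and -6.7 without that of B87, and both were called.

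*Muc6*, the gland mucin normally secreted with TFF2, was not called. *Muc6* lay between 0.307 and 0.648 CPM under SB505124 and between 0.408 and 0.771 CPM under TGFβ1. Those ranges overlap, and the log2 fold change of 0.55 ± 0.299 missed the threshold (edgeR adjusted p 0.185). It had 7 to 18 reads per library.

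These mucin and trefoil genes sit in neighboring blocks. On GRCm38, the build of the deposited table, *Muc6* (chromosome 7, 141633456 to 141655319, minus strand), *Muc5ac* (141788972 to 141819231, plus strand) and *Muc5b* (141839070 to 141873084, plus strand) lie in a row with *Muc2* (141690340 to 141754693) between *Muc6* and *Muc5ac*. Called lower with TGFβ1 were *Muc5ac* and *Muc5b*; *Muc2*, the intestinal gel-forming mucin, stayed between 0.132 and 0.714 CPM and was not called. *Tff3*, *Tff2* and *Tff1* lie on chromosome 17 between 31125306 and 31165053, all on the minus strand, and all 3 fell. *Tff3*, the intestinal trefoil factor, is outside the 10-gene set and had a pooled ratio of 25.1 (15.9 to 42) in favor of SB505124 (edgeR adjusted p 0.00037).

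Of the membrane mucins, *Muc1* was not called. SB505124-treated B73 cells had 27.4 CPM with *Smad4* off and 13.1 CPM with it on, and TGFβ1-treated ones had 28.2 and 8.01 CPM. In B87 the same order gave 4.08, 1.21, 8.21 and 1.07 CPM. The averaged difference was -0.01 ± 0.251 (edgeR adjusted p 0.989), with -0.33 in B73 and 0.42 in B87 when each line was taken alone. That average joins unlike values of the 2 *Smad4* states. The pooled ratio of TGFβ1 to SB505124 reads was 1.26 (1.14 to 1.4) with *Smad4* off and 0.71 (0.585 to 0.861) with it on. By line it was 1.03 and 0.61 in B73 and 2.01 and 0.888 in B87, in the same order. The difference between the states was not tested. *Muc4* had 8, 3, 4 and 2 reads in the SB505124 libraries and 0 in all 4 under TGFβ1, which makes it at least 1.37-fold lower there against a floor of 3 reads per library. It was too low to enter the fit.

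*Ctse* encodes cathepsin E, an aspartic protease of gastric mucous cells that is switched on in pancreatic neoplasia. In *Smad4*-off cells it measured 0.598 CPM under SB505124 and 0.899 CPM under TGFβ1 in B73, and 0.219 and 0.995 CPM in B87. In *Smad4*-on cells the same comparison gave 11.9 and 41.8 CPM in B73 and 3.57 and 5.86 CPM in B87. TGFβ1 was higher in 4 of 4 pairs, but the log2 fold change of 1.36 ± 0.481 missed the threshold (edgeR adjusted p 0.0612). It passed in DESeq2 with the line (adjusted p 0.00478), with no filter on low counts (0.00131 in edgeR), and in edgeR without the *Smad4*-off TGFβ1 library of B73 (0.00766) or the *Smad4*-on TGFβ1 library of B87 (0.0148).

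*Ceacam18* belongs to the carcinoembryonic antigen family of adhesion molecules. Under SB505124 its levels were 0.898 and 23.2 CPM in B73 and 0.0878 and 2.95 CPM in B87 (*Smad4* off, then on). Under TGFβ1 it was detected in a single library, at 2.29 CPM (45 reads) in *Smad4*-on B73 cells, and the other 3 had no read. The pooled ratio was 11.2 (8.26 to 15.6) in favor of SB505124 (edgeR adjusted p 0.00427). This call was lost without the *Smad4*-off SB505124 library of B73 (0.0677), as it was with no replicate block (0.162 in edgeR and 0.0963 in DESeq2). The fitted log2 difference of -5.14 became -3.83 without the *Smad4*-off TGFβ1 library of B73, -7.71 without its *Smad4*-on TGFβ1 library and -5.91 without its *Smad4*-on SB505124 library, all still called. *Agr2*, which encodes a disulfide isomerase that helps to fold mucins, had 1 read in each of 2 libraries and none in the other 6.

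The plot of the TGFβ1 response sets these genes beside the other genes of the same biology.

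**Figure D2:**
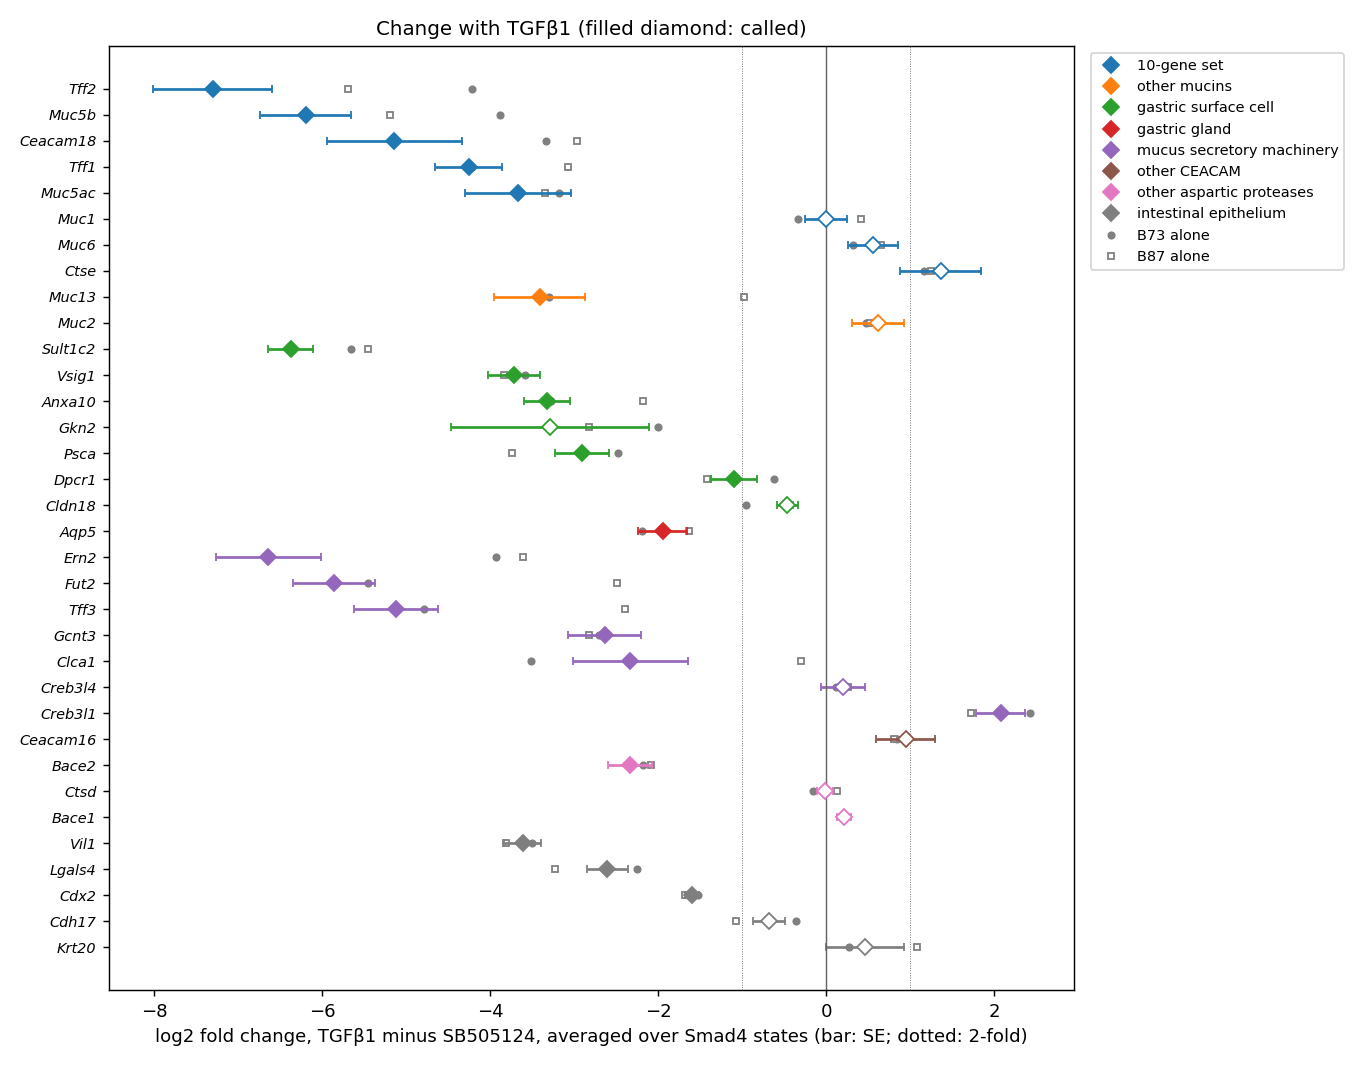
log2 fold change of TGFβ1 minus SB505124, averaged over *Smad4* states, for the 8 tested genes of the set and 26 other tested genes grouped by list; diamonds are edgeR estimates with SE bars, filled where called, and small grey symbols are each line alone, computed with a prior count of 2 that pulls low genes towards 0. *Tff2*, *Muc5b*, *Ceacam18*, *Tff1* and *Muc5ac* lie to the left of the dotted 2-fold line at -1, and *Muc1*, *Muc6* and *Ctse* at or right of 0.

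A further 60 genes in 7 lists by function were followed, of which 26 could be tested. Of these 26, 16 fell with TGFβ1 and 1 rose, and the median of their log2 differences was -2.33. The rule called 6.97% of all tested genes lower and 5.42% higher. Some list genes entered the fit through the SB505124 libraries. *Ern2* had 22 to 32 reads in each of these and at most 1 in any TGFβ1 library. Earlier results of these data were also known when the lists were made. This median and the counts, here and by list below, are therefore only a description. Adjusted p-values and calls of such genes carry the same limit. In the gastric surface cell list 5 of the 7 tested genes fell and none rose: *Sult1c2* (log2 fold change -6.37 ± 0.267, edgeR adjusted p 2.23e-05), the junction gene *Vsig1* (-3.72 ± 0.305, 0.000188), the annexin *Anxa10* (-3.32 ± 0.274, 0.000191), *Psca* (-2.91 ± 0.32, 0.000622) and *Dpcr1* (-1.1 ± 0.275, 0.0184). *Gkn2*, a gastrokine secreted by surface cells, was not called although 160 reads under SB505124 stood against 4 under TGFβ1; 158 of the 160 came from *Smad4*-on cells. The tight-junction gene *Cldn18* was not called either. Single omissions moved *Sult1c2* to -7.84 (without the *Smad4*-on TGFβ1 library of B87), *Anxa10* to -2.41 (without the *Smad4*-off TGFβ1 library of B73) and *Psca* to -3.6 (without the *Smad4*-on TGFβ1 library of B73), and all 3 were still called.

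Of the mucus secretory list's 7 tested genes 5 fell and 1 rose. Those that fell were the mucin glycosyltransferase *Gcnt3* (-2.64 ± 0.434, edgeR adjusted p 0.0034), the fucosyltransferase *Fut2* (-5.86 ± 0.483, 0.00019), the secreted protease *Clca1*, *Tff3*, and *Ern2*, the stress sensor of mucous cells, which had 116 reads under SB505124 and 1 under TGFβ1 (ratio 112, 19.8 to 4470). The gene that rose was *Creb3l1*, a membrane-bound transcription factor of secretory cells (2.08 ± 0.293, edgeR adjusted p 0.00179), and its level was higher under TGFβ1 in 4 of 4 pairs. The *Clca1* call was lost without any 1 of the 4 B73 libraries, with edgeR adjusted p-values from 0.0908 to 0.148. *Gcnt3* was at -3.68 without the *Smad4*-on TGFβ1 library of B73, and *Fut2* at -5.06 and -4.65 without the *Smad4*-off SB505124 and TGFβ1 libraries of B73, all called.

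Among the other mucins only *Muc13*, a membrane mucin, was called (-3.41 ± 0.543, edgeR adjusted p 0.00297), and not without the *Smad4*-on SB505124 library of B73 (-2.71, 0.0549); it was at -2.08 and -5.04, still called, without the *Smad4*-on TGFβ1 library of B73 and of B87. In the gastric gland list *Aqp5*, a water channel, was the 1 of 9 genes with enough reads and it fell (-1.95 ± 0.288, edgeR adjusted p 0.00217), whereas *Pgc*, *A4gnt*, *Lipf* and *Chia1* had no read in any library. Of 5 tested intestinal genes 3 fell, *Vil1*, *Lgals4* and *Cdx2*, the last being the intestinal master regulator (-1.6 ± 0.0844, edgeR adjusted p 3.94e-05). Neither protease relative *Ctsd* nor *Bace1* was called, while *Bace2* fell (-2.33 ± 0.263, edgeR adjusted p 0.000679). *Ceacam16*, the only other tested gene of the carcinoembryonic antigen family, was not called (0.94 on the log2 scale). Of the 7 ductal markers 2 fell with TGFβ1, *Krt19* (-1.9 ± 0.15, edgeR adjusted p 0.000166) and *Cdh1* (-1.69 ± 0.316, 0.00588), and *Krt7*, *Krt8*, *Krt18*, *Sox9* and *Epcam* were not called. The median over the 7 was 0, but their summed level was lower with TGFβ1 in every pair. In *Smad4*-off cells it was 4010 CPM with SB505124 and 3940 CPM with TGFβ1 in B73, and 2110 and 1300 CPM in B87. In *Smad4*-on cells the same comparison gave 6200 and 5790 CPM in B73, and 1690 and 1220 CPM in B87. The 4 endothelial markers summed to between 0.702 and 5.18 CPM under SB505124 and between 3.42 and 26 CPM under TGFβ1, chiefly *Kdr* and *Cdh5*, with at most 5 reads of *Pecam1*. The part of these changes in the results for the 10 genes was not tested.

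The *Smad4* difference is the one the set was selected on. Under SB505124, *Muc5ac*, *Ctse* and *Ceacam18* met the calling rule in the direction of higher expression with *Smad4* on and none in the other direction, where the rule called 0.636% of all genes higher and 0.455% lower. Under TGFβ1, *Ctse* and *Ceacam18* met it as higher and *Muc1* as lower, where it called 1.31% of all genes higher and 1.8% lower. Since earlier knowledge of these differences chose the genes, nothing is read from these counts. Just outside the rule stood *Tff1* under SB505124, at a log2 fold change of 2.2 ± 0.409.

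Values differed in kind between genes. The *Smad4*-on to *Smad4*-off ratio of *Muc5ac* reads under SB505124 was 216 (92.2 to 666) in B73 and 17.2 (12.6 to 24.1) in B87, the difference between lines lying mainly in the *Smad4*-off cells, with 5 reads in B73 and 42 in B87. Under TGFβ1 the corresponding ratios were 35.7 (5.94 to 1460, from 1 read in the *Smad4*-off library) and 2.81 (1.21 to 7.31). *Ctse* was higher with *Smad4* on by 19.9 (11.2 to 39.2) and 16.3 (6.71 to 51.4) times under SB505124 in B73 and B87, and by 46.5 (30.2 to 75.5) and 5.89 (3.64 to 9.99) times under TGFβ1. For *Tff1* the ratios under SB505124 were 7.18 (5.38 to 9.74) and 2.57 (1.7 to 3.99).

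*Ceacam18* was higher with *Smad4* on by 25.9 (16.2 to 44.1) times in B73 and 33.6 (8.97 to 283) times in B87 under SB505124, the second from 2 reads in the *Smad4*-off library. Under TGFβ1 it was at least 17.9-fold higher in B73, and both B87 libraries had no read, so that the fitted value there came from B73 alone. *Muc1* was the member with the opposite sign in every pair: reads with *Smad4* off exceeded those with *Smad4* on 2.09 (1.79 to 2.44) and 3.39 (2.21 to 5.33) times under SB505124 and 3.52 (2.95 to 4.22) and 7.68 (4.86 to 12.7) times under TGFβ1. *Tff2*, with ratios of 0.656 (0.438 to 0.971) in B73 and 1.2 (0.918 to 1.58) in B87 under SB505124, and *Muc5b* differed little with *Smad4*.

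**Figure D3:**
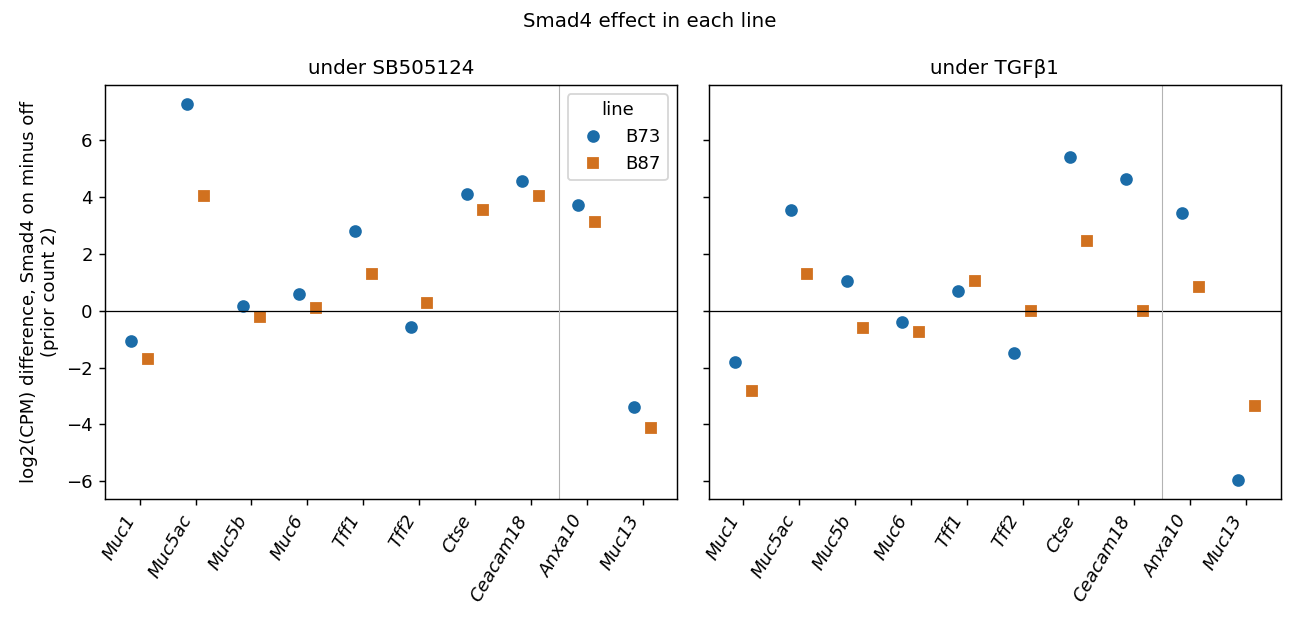
Difference in log2 CPM (prior count 2) between *Smad4*-on and *Smad4*-off libraries of each line, under SB505124 (left) and TGFβ1 (right), for the 8 tested genes of the set and, right of the grey line, the 2 other list genes called under both treatments; each point is 1 pair of libraries. *Muc5ac*, *Ctse* and *Ceacam18* lie at 3.54 or above in both lines under SB505124, *Muc1* lies below 0 in all 4 pairs, and the B87 points of *Tff2* and *Ceacam18* under TGFβ1 are at 0 because both libraries had no read.

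The genes outside the set were compared between *Smad4* states in the same way. The lists were drawn up with results of these data known, so these counts and p-values are a description as well. Over all tested genes the rule called 0.636% higher and 0.455% lower with *Smad4* on under SB505124. Under TGFβ1 it called 1.31% higher and 1.8% lower. Under SB505124, 3 of 26 rose and 1 fell with *Smad4* on: *Gkn2* (pooled ratio 79.5, 21.6 to 662, with 2 reads in *Smad4*-off cells, edgeR adjusted p 0.0161), *Anxa10* (log2 fold change 3.67 ± 0.303, 0.00375) and *Vil1* (2.39 ± 0.257, 0.00956) rose, and *Muc13* fell (-3.68 ± 0.463, 0.0159). Under TGFβ1, *Anxa10* (3.38 ± 0.467, edgeR adjusted p 0.00985) and *Cdh17* (1.19 ± 0.272, 0.0489) rose, and *Muc13*, with 166 reads in *Smad4*-off and 1 in *Smad4*-on cells (0.00792), and *Vsig1* (-2.28 ± 0.489, 0.0414) fell. The remaining 22 genes of each comparison were not called.

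Each of these calls failed with no replicate block in edgeR, where 0 of the 26 were called under either treatment, and each failed when at least 1 single library was left out. Without the *Smad4*-off TGFβ1 library of B73, the *Anxa10* value under TGFβ1 was 1.52 (edgeR adjusted p 0.445), and without the *Smad4*-on TGFβ1 library of B73 that of *Muc13* was -4.27 (0.0966) and that of *Vsig1* -3.09 (0.0956). Under SB505124, *Muc13* was at -5.02 (edgeR adjusted p 0.07) without the *Smad4*-on library of B73, and *Gkn2* was not called without the *Smad4*-off library of B73 (0.112). *Vil1* under SB505124 was also not called by DESeq2 with the line (adjusted p 0.2).

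Of the membrane mucins, *Muc1* and *Muc13* thus both measured lower with *Smad4* on in all 4 pairs. *Muc3* and *Muc3a*, too low for the fit, went the other way in B73 under SB505124. There *Muc3* had 3 reads with *Smad4* off and 21 with it on, and *Muc3a* had 0 and 20. Neither had a read in B87 or under TGFβ1. In a search over 12238 genes with a mean of at least 1 CPM, *Anxa10* was the one whose log2 CPM over the 8 libraries was most like that of *Ceacam18* (Pearson r 0.984), followed by *Fam122a* (0.979) and *Tmem117* (0.974). The nearest to *Muc1* were *Satb1* (0.986), *Hmgcs1* (0.979) and *Cgn* (0.979), and to *Muc5ac* they were *Npepps* (0.989), *Vps26b* (0.977) and *Chn2* (0.97). *Ctse* was nearest to *Trim26* (0.982), *Cdc42bpb* (0.981) and *Havcr2* (0.98). *Tff1* was nearest to *Dnajb14* (0.986), *Atp8b1* (0.984) and *Arf6* (0.984), and *Muc5b* to *Esco2* (0.992), *Rnf168* (0.988) and *Pex10* (0.987). These coefficients rest on 8 points that share lines and treatments, and the highest of so many candidates is high by selection.

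The DNA just upstream of *Ceacam18*, *Anxa10* and *Muc1* is shown because the first pair measured higher and the last lower with *Smad4* on. The windows come from RefSeq (GRCm38.p6), end at the base before the gene start or earlier, and read 5′ to 3′ on the coding strand, with capitals for the SMAD-binding motif CAGAC or its reverse complement GTCTG. They lie at chr7:43634489-43634706 (plus strand) for *Ceacam18*, chr8:62123194-62123443 (minus strand) for *Anxa10* and chr3:89228806-89229055 (plus strand) for *Muc1*.
Ceacam18: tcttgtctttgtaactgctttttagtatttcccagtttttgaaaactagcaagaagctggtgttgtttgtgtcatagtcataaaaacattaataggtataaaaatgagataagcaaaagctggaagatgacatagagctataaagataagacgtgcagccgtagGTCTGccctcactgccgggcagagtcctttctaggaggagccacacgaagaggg
Anxa10: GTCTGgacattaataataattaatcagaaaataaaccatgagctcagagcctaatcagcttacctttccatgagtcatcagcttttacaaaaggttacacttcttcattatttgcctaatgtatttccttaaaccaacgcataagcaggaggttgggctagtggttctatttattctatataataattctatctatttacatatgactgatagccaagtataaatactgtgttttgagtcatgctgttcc
Muc1: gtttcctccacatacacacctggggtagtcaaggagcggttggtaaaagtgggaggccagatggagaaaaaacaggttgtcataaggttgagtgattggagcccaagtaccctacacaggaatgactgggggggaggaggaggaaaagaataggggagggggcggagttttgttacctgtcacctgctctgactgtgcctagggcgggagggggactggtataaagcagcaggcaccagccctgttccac

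Within 250 bases upstream of the RefSeq start, *Ceacam18* and *Anxa10* each hold CAGAC once, on the reverse strand, 86 and 250 bases before the start, and *Muc1* does not hold it. Among list genes, *Vil1*, called higher with *Smad4* on under SB505124, does not hold it, and *Muc13*, called lower, holds it in 1 of its 2 windows, 205 bases before the start. *Gkn2*, *Muc4* and *Muc6* hold it once each. This motif is short, and 42.2% of the 32851 promoters in the table hold it on one strand or the other. *Anxa10* also holds the AP-1 motif TGAGTCA 2 times, 180 and 16 bases before the start, against 4.46% of all promoters with at least 1. *Muc13*, called lower with *Smad4* on, holds it in each of its 2 windows, 61 and 179 bases before the start. *Vil1*, *Gkn2* and *Vsig1* do not hold it. *Ceacam18* holds the GATA motif AGATAA 2 times, 144 and 107 bases before the start, against 9.99% of all promoters. *Muc2*, not called in either *Smad4* comparison, holds it 2 times as well. Neither of the FOXA motifs TGTTTAC and TGTTTGC (3.17% and 4.3% of promoters) nor the KLF motif CCACCC (28.1%) occurs in the 3 windows shown on either strand. Of the set, 5 of 10 genes have an entry in this table, the others being *Muc4*, *Muc6* and *Agr2*.

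Whether the 2 lines differ was tested with the line term of the fit, averaged over conditions, which the selection did not use directly. Of the 8 tested genes 4 were called higher in B73, *Muc1*, *Ceacam18*, *Ctse* and *Tff1*, and none higher in B87. Over all genes 4.5% were called higher and 3.87% lower in B73. The count is only a description, since the set was selected on changes in these same libraries. *Muc1* was higher in B73 in 4 of 4 conditions (log2 difference 2.62 ± 0.259, edgeR adjusted p 0.000887). It also kept its call without any single library. *Ceacam18* was higher in 3 of 4 conditions with no read in either line in the other (3.39 ± 0.495, edgeR adjusted p 0.00693), a call that DESeq2 with the line did not make (adjusted p 0.0512). The difference was 4.73 without the *Smad4*-on SB505124 library of either line, called both times.

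The line difference of *Ctse* was 1.83 ± 0.43 (edgeR adjusted p 0.0274), with B87 marginally the higher in *Smad4*-off cells under TGFβ1, and that of *Tff1*, higher in B73 in 4 of 4 conditions, was 1.57 ± 0.368 (0.027). Neither was stable to the loss of 1 library. *Ctse* was not called without any 1 of the 4 *Smad4*-on libraries, with edgeR adjusted p-values of 0.0995 and 0.0955 without the SB505124 libraries of B73 and B87 and 0.123 and 0.0895 without the TGFβ1 libraries (differences of 1.14 and 1.19). *Tff1* was not called without the *Smad4*-on SB505124 library of B73 or B87 (a difference of 0.82 in both, with 0.18 and 0.139) or without the *Smad4*-off TGFβ1 library of either (0.0576 and 0.0571).

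*Muc5ac* (-0.07 ± 0.534, edgeR adjusted p 0.947), *Muc6* (0.42 ± 0.296, 0.387), *Tff2* (-0.55 ± 0.463, 0.487) and *Muc5b* (-1.03 ± 0.402, 0.133) did not pass the line test. *Muc5b* was nevertheless the higher in B87 in both *Smad4* states under SB505124, and it passed with no filter on low counts (0.0394). Each line is a single derivation from 1 tumor-bearing pancreas, so these are differences between 2 cultures.

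**Figure D4:**
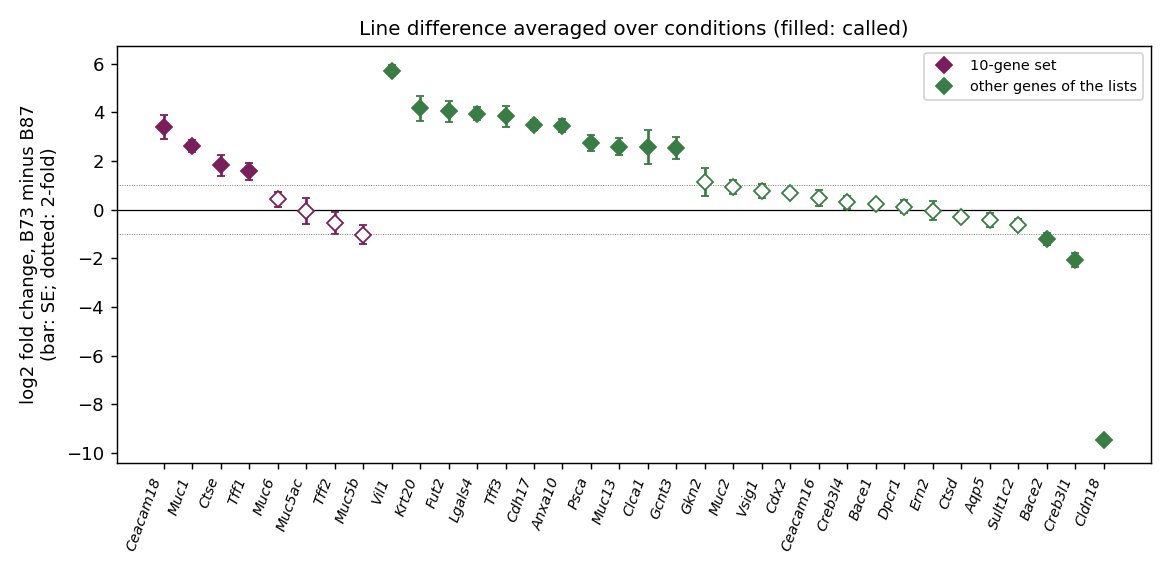
log2 fold change of B73 minus B87, averaged over the 4 conditions, for the 8 tested genes of the set (left, purple) and 26 other tested list genes (right, green); diamonds are edgeR estimates, bars are SE, filled symbols were called, and dotted lines mark 2-fold. *Ceacam18*, *Muc1*, *Ctse* and *Tff1* are called higher in B73, and *Cldn18* stands at -9.46, far below every other gene drawn.

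The lists around the set differed between lines as well: 11 of the 26 tested genes were called higher in B73 and 3 higher in B87. Over all tested genes the rule called 4.5% higher and 3.87% lower in B73. The lists were drawn up with results of these data known, so these counts and p-values are only a description. Higher in B73 were 4 of the 5 tested intestinal genes, *Vil1* (5.71 ± 0.238, edgeR adjusted p 3.05e-05), *Krt20* (4.17 ± 0.502, 0.00194), *Lgals4* (3.95 ± 0.26, 0.000182) and *Cdh17* (3.47 ± 0.205, 0.000115). *Anxa10*, *Psca*, *Tff3*, *Fut2*, *Gcnt3*, *Clca1* and *Muc13* were higher there too, *Clca1* not without the *Smad4*-on SB505124 library of B73 or B87 (1.6 and 1.67, edgeR adjusted p 0.165 and 0.139). *Cldn18*, whose product seals the gastric epithelium, ran the other way, with 2 to 11 reads per library in B73 and 3930 to 8582 in B87 (-9.46 ± 0.164, edgeR adjusted p 1.23e-06). *Creb3l1* and *Bace2* were the remaining 2 higher in B87. Of the 7 ductal markers 4 were also called higher in B73 and 0 lower, with a median log2 difference of 1.84. The ductal keratin gene *Krt7* was among them (4.86 ± 0.233, edgeR adjusted p 4.88e-05). Their summed level was 3940 to 6200 CPM in B73 and 1220 to 2110 CPM in B87. *Pdgfrb* was higher in B87 (-4.64 ± 0.597, edgeR adjusted p 0.00255). The part of these marker differences in the differences of the 10 genes was not tested.

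A line difference in the TGFβ1 response itself was called for none of the 8 genes. edgeR called 0% of the 14301 genes in either direction, with 1198 at an unadjusted p under 0.05, among them *Tff2* (0.0417) and *Ceacam18* (0.0107). DESeq2 with the line called 25 genes, none of them in the set. For *Muc5ac*, the difference between the lines in the log2 response was -0.11 ± 1.31, so that 1 SE alone spans more than 2-fold in either direction.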

How the data were processed

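The deposited table holds raw read counts per gene for 8 libraries, from TruSeq stranded mRNA kits sequenced as 75-base single reads. Per the labels and the submitters' processing notes, the authors used FastQC 0.11.5, Trimmomatic 0.36, STAR 2.5.3a on GRCm38 and featureCounts 1.6.3; strand and multimapping settings are not given in the sources used here. Transcript lengths are the deposited ones. Members and gene lists were chosen with earlier results of these data known. Genes named are all 10 members, list genes called or with a mean of at least 1 CPM where they carry a result, the 3 genes most like each tested member with a mean of at least 1 CPM, and *Smad4*. *Muc3* and *Muc3a* are named beside the other membrane mucins. The genes most like *Tff2* and part of the model's genotype are not reported here.

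Counts were fitted with edgeR 4.0.16 (R 4.3.3; TMM scaling, filterByExpr, quasi-likelihood F-test, group plus line) over all 14301 genes passing the filter, with Benjamini-Hochberg adjustment over all of them; the study's own methods name DESeq2 without stating a covariate. A call required an adjusted p under 0.05 and more than 2-fold. Read ratios are scaled by library size, with exact 95% intervals that cover counting error only, and the floor is 3 reads per library. Replicate number 1 is B73 and 2 is B87 in every group, so the number marks the cell line, and the line is the replicate block of the main fit; same-numbered libraries deviated together (correlations 0.642 to 0.774, median 0.758). Groups hold 2 libraries, 1 per line, so p-values measure the spread between these libraries. Alternatives were DESeq2 1.42.0 with and without the line, DESeq2 size factors, no line, no filter, a minimum of 10 counts per library, no fold criterion, edgeR's test against the 2-fold threshold, and omission of each library or line. The fit was tested on simulated counts. Sequence stretches of 75 bases shared between genes were counted in the GENCODE M21 transcripts. Repeats within a transcript took up 21.6% of the longest *Muc5ac* transcript, 18.5% of that of *Muc5b* and 9.37% of that of *Muc6*, where reads could map to several places.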

Additional observations from a re-analysis of the deposited data

Results flagged for a closer look

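*Muc5b* was the one member in which the *Smad4*-on minus *Smad4*-off difference had opposite signs in the 2 lines under both treatments. On the log2 scale (prior count 2) it was 0.18 in B73 and -0.24 in B87 under SB505124, and 1.05 and -0.61 under TGFβ1, the latter from at most 2 reads in any library. The difference between the lines was not tested.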

How the results depend on the processing

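The main fit already holds the line as the replicate block. With no replicate block, edgeR called 0 of the set in the *Smad4* comparison under TGFβ1 and 0 under SB505124 (3 in each with the block), and of the other list genes 8 in the TGFβ1 average (17 with the block) and 0 in either *Smad4* comparison (4 in each with it); DESeq2 without the line called 1 of the set and 2 list genes under TGFβ1 and 1 list gene under SB505124. With no filter, 5 of the set were called in the *Smad4* comparison under SB505124, as were 9 list genes under TGFβ1 and 8 under SB505124. Requiring 10 counts in every library left 1 of the 10 genes, *Muc1*, to test, so its counts say nothing of the others: 0 calls of the set in the TGFβ1 average, 1 in the line comparison, 1 for *Smad4* under TGFβ1 and 0 under SB505124, and 6, 1 and 0 list genes in the TGFβ1 average and the *Smad4* comparisons under TGFβ1 and SB505124. The test against the 2-fold threshold left 2 of the set in the line comparison, 0 for *Smad4* under either treatment, and 1 list gene in each *Smad4* comparison.

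Leaving out 1 library gave 4 to 6 calls of the set in the TGFβ1 average, 2 to 4 between lines, 1 to 3 for *Smad4* under TGFβ1 and 0 to 3 under SB505124, and 15 to 18, 1 to 4 and 0 to 5 list genes. The sign of *Muc1* in the TGFβ1 average, near 0, changed with DESeq2 size factors (0), DESeq2 (0.04), B87 alone (0.42, against -0.33 in B73 alone) and single omissions (-0.3 to 0.34). Under single omissions the line difference of *Muc5ac* ran from -1.1 to 0.48, and the line difference in response from -3.01 to 2.71 for *Muc5ac*, -2.11 to 5.31 for *Muc5b*, -3.02 to 5.57 for *Ceacam18* and -1.82 to 1.13 for *Ctse* (-0.15 in DESeq2); the cause was not tested. Over all genes, the line difference in response had 0 calls in edgeR but 25 in DESeq2 with the line and 80 with no filter. *Muc4* was called lower with TGFβ1 only where it could be fitted, with no filter (edgeR adjusted p 0.0159). In the TGFβ1 average the median log2 difference of all genes was -0.02 in the main fit. It was -0.01 with DESeq2 size factors and in DESeq2 with the line. For the *Smad4* comparisons this median lay between -0.007 and 0.007 under every scaling. *Muc4* and *Agr2* had too few reads for the fit.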
